A study of Drosophila melanogaster with 24 samples.

Results

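The transposon insertions of the fruit fly genome were followed through 11 of the 24 RNA-seq libraries of a Drosophila melanogaster study of ADAR and Zn72D. The members were all rows with a FlyBase transposon insertion identifier in the 11 tables that listed such rows. There were 5416 of them among 23882 rows, beside 17830 genes and 636 other rows. Each row is 1 insertion of the reference genome, and 5414 could be given the name of their element. They fell into 127 families by name, with spelling variants such as DM88 and Dm88 kept apart. Insertions ran from 6 to 66001 bases, with a median of 328.

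The study compared RNA of fly intestinal cells at different ages and after changes in ADAR and Zn72D. ADAR is an enzyme that turns adenosine into inosine in double-stranded RNA, and Zn72D is a zinc-finger RNA-binding protein with a known part in that editing. The 11 libraries were 3 of a Zn72d RNAi knockdown, 3 of its wild-type control, 3 labelled as overexpressing the E374A form of ADAR, and 2 of 3 labelled as wild-type controls for it. The library labelled E374A control 3 and the 12 midgut libraries, deposited in another format, were not analysed here. The labels of the 11 give no driver, age or sex, and the series text calls the overexpression specific to the midgut. No label ties a replicate to its own flies, so p-values here stand for the spread among these libraries, part of which could be technical.

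Transposable elements are copies of mobile DNA, most of them old and broken. LTR retrotransposons, such as copia and springer, and non-LTR retrotransposons, such as I, Doc and the TART elements, move through an RNA copy. DNA elements with terminal inverted repeats, such as 1360, hobo, pogo and Bari1, are cut out and pasted in as DNA, and INE-1 is a short element of the Helitron type present in very many copies. In the germline, small RNAs bound to PIWI proteins silence these elements, and in somatic tissue the siRNA pathway with Dcr-2 and AGO2 acts on them. Reads of an insertion can come from the element's own promoter or from the transcript of a gene around it, and bulk RNA-seq does not separate these sources. Fewer cells that express an element and less RNA per cell cannot be told apart either.

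Several properties of the libraries bear on every value below. Adar ran against the sample titles of the E374A set, whose groups are used here, with 879 and 801 TPM (transcript abundance corrected for row length and scaled to a fixed total per library) in the libraries labelled control 1 and 2. It had 17.2, 14.5 and 15.8 TPM in the libraries labelled overexpression 1 to 3. The names of the deposited tables are the other way round from the titles and library names: the tables of the labelled controls are named as overexpression and those of the labelled overexpression libraries as wild type, so the table names run with Adar. Which of these names is right cannot be told from the labels, and if the table names are, the second comparison below is overexpression minus wild type. Those 3 also held the same coverage, within 0.1%, as the same-numbered Zn72d controls at 87.1% to 87.6% of the insertions above 0 in both. No other of the 52 pairs of libraries passed 1.29%. The 2 comparisons therefore share their reference samples. The table names, which call the labelled overexpression libraries wild type, run with this shared coverage as well as with Adar. Aligned sequence was estimated at 5.61 to 7.66 gigabases per library, and the depth of a single row is not known as a count. The tissue label is whole organism, whereas the extract protocol describes sorted stem cells of the midgut. The 6 digestive enzyme markers summed to 64167 to 82569 TPM and the 3 measured stem cell and enteroblast markers to 23.8 to 38.6. Of the 7 measured germline and gonad markers, the sex-determination gene Sxl had 32.7 to 65.3 TPM, the PIWI-clade gene aub at most 0.813, and bam, vas, tj, osk and fs(1)Yb were at or near 0. The 4 fat body markers summed to 57.0, 79.2 and 71.6 TPM in the Zn72d knockdown and 31.2, 16.7 and 1.85 in its controls. The sum was 36.9 and 202 in the labelled E374A controls and 30.9, 16.6 and 1.83 in the labelled overexpression libraries. Most of it was Yp1, at 54.3, 76.7 and 69.0 TPM in the knockdown and 36.4 and 180 in the labelled E374A controls. Lsp2 had 20.6 TPM in labelled E374A control 2 and at most 0.0522 in any other library, and Fbp1 had at most 0.0469. The apolpp gene had 2.63, 2.50 and 2.55 TPM in the knockdown and at most 1.28 in any other library. The part of these genes in the results was not tested. Zn72D was 10.6, 17.9 and 15.999 TPM after knockdown and 18.6, 18.1 and 16.9 in their controls, a difference that was not called (log2 fold change −0.28 ± 0.22, limma adjusted p = 0.469).

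Insertion rows took a small share of the RNA, and a few families took most of it. They held between 0.0794% and 0.195% of the TPM of a library. Between 1622 and 2302 of the 5416 insertions lay above 0 in a library, and 144 to 301 reached 1 TPM. Over the 11 libraries 2063 insertions were listed at 0 throughout. The 10 families with the highest mean took 72.7% of the summed TPM: copia, INE-1, springer, 1360, TART-C, 3S18, flea, Doc, H (hobo) and I. LTR retrotransposons made up 48.5% to 66.3% of the insertion TPM of a library, INE-1 13.9% to 26.2%, and non-LTR retrotransposons 8.39% to 17.99%. DNA elements with terminal inverted repeats made up 7.63% to 12.7%. TPM values are corrected for row length, but levels of very short rows or of similar copies are not safely compared with those of other rows. A family sum also grows with its number of copies: copia has 35 rows, INE-1 2234 and TART-C 1.

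Insertions inside expressed genes carried more than their share of the signal. Of the 5416 insertions, 382 overlapped an exon of a gene, 2325 lay in introns only and 2709 lay outside genes. The 1669 that overlapped a gene with a mean of at least 1 TPM were 30.8% of insertions and 58.6% of the summed mean TPM. Among them 8.33% had a mean of at least 1 TPM, against 2.31% of the 1038 in genes below that level and 2.99% of those outside genes. The orientation made little difference to this share. It was 8.16% for insertions on the strand of an expressed host gene and 8.53% for those on the opposite strand. Whether the counting used strand is not given in the sources used here, so reads of a host gene and of an insertion within it cannot be told apart on that ground. The 10 insertions with the highest mean were TART-C{}6275 and copies of copia longer than 5000 bases, most of them inside genes: copia{}1467 in Gprk2, copia{}840 in the splicing regulator mbl, copia{}399 in CadN2, copia{}324 in the transglutaminase gene Tg, copia{}67 in CG3726, copia{}631 in Nipped-A, copia{}1349 in beat-Vb and copia{}920 in the kinase gene Eip63E. One of them, copia{}387, lay outside genes. The host was not always active: beat-Vb was listed at 0 in all 11 libraries, while copia{}1349 had 14.6 to 51.2 TPM.

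**Figure D1:**
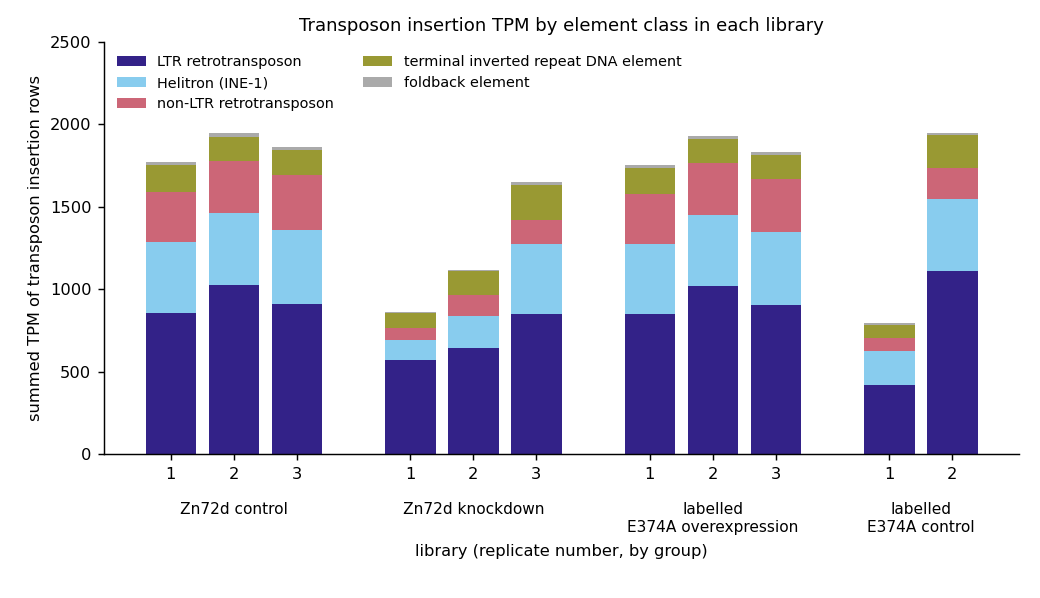
Summed TPM of all classed insertion rows in each of the 11 libraries, stacked by element class, with libraries by group along the horizontal axis. The Zn72d controls and the libraries labelled E374A overexpression stand between 1754 and 1949 TPM in all, whereas the Zn72d knockdown libraries range from 864 to 1650.2 and the labelled E374A controls are 794 and 1951.

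The first comparison asked whether element transcripts differ after knockdown of Zn72d. The summed TPM of all insertions was 864, 1116 and 1650.2 in knockdown libraries 1, 2 and 3 and 1771, 1949 and 1863 in the controls. All 3 knockdown libraries were below all 3 controls, but library 3 was close to them, and the knockdown mean of 1210 ± 402 (SD, n = 3) was 65.01% of the control mean of 1861 ± 89.0. The ratio of the means was −0.62 on the log2 scale, −0.47 with median-ratio scaling and −0.91 without knockdown library 3. Median-ratio size factors were 0.749, 0.919 and 1.045 for knockdown libraries 1, 2 and 3 and 1.074, 1.030 and 0.961 for the controls. In knockdown library 1 the typical row thus also had a lower TPM. A sum over members was given no test. By class, also with no test, non-LTR elements had 117 ± 39.95 TPM in the knockdown against 319 ± 15.2 in the controls, INE-1 247 ± 158 against 437 ± 9.58 and LTR elements 688 ± 143 against 932 ± 86.6. DNA elements with terminal inverted repeats had 148 ± 58.3 against 154 ± 7.66.

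In the Zn72d knockdown, 2 families rose and 7 fell (limma on log2(TPM + 1), adjusted p under 0.05). Families were tested if their mean reached 1 TPM, which held for 81 of 127. Of all 8569 rows in that fit, 0.899% were called higher and 1.31% lower, 2.21% in all. The families that fell were the non-LTR elements TART-C, G2 and TART-A, the LTR elements rooA, HMS-Beagle and ninja-Dsim-like, and the DNA element Tc1-2. The 2 that rose were the LTR element invader1 and the DNA element Bari1. The median log2 fold change was −0.61 over the families tested and −0.17 over all rows, and 68 of the 81 families against 68.5% of all rows had an estimate below 0. The comparison without any one control called 5 families, where 0.96% to 1.09% of all rows were called. Without knockdown library 2 it called 6 of 80 families, beside 0.714% of all rows. Without knockdown library 3 it called 30 of 80, beside 7.68% of all rows. Median-ratio scaling, which brings the median of all rows to −0.01, called 5 higher and 10 lower, where 3% of all rows were called.

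TART elements are non-LTR retrotransposons that add to chromosome ends in Drosophila, where they stand in for telomerase. The single TART-C row, TART-C{}6275, is a 989-base insertion outside genes on chromosome 4 (dm6, 1288110 to 1289098, minus strand). It had 49.4, 73.2 and 104.0 TPM in the controls and 0.226, 0.340 and 0.666 in the knockdown. The controls were high in all 3 libraries and the knockdown was close to 0 in all 3, a log2 fold change of −5.71 ± 0.28 (SE; limma adjusted p = 9.5e-06). TART-A, with 10 rows, had 16.9, 18.2 and 16.8 TPM in the controls and 1.81, 1.04 and 2.86 in the knockdown (−2.70 ± 0.24, limma adjusted p = 0.000826). Its signal lay mostly in TART-A{}6261 and TART-A{}6259, rows of 12349 and 12306 bases on chromosome 4 (1320141 to 1332489 and 1333119 to 1345424). HeT-A, another telomeric element with 26 rows, had 8.34, 8.41 and 6.29 TPM in the controls and 3.17, 2.08 and 5.68 in the knockdown and was not called (−0.97 ± 0.29, limma adjusted p = 0.133). HeT-A was chosen after its values were seen.

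G2, a non-LTR family of 21 rows, showed the same contrast in 1 insertion. The family had 36.95, 35.9 and 33.02 TPM in the controls and 0.479, 0.868 and 0.414 in the knockdown (−4.52 ± 0.19, limma adjusted p = 3.0e-06). G2{}340, 2366 bases on chromosome 2L (11315294 to 11317659), outside genes, took 85.4% of the family mean. Its values were 32.5, 30.7 and 28.9 TPM in the controls and 0.0360, 0.0941 and 0.0560 in the knockdown. Whether the knockdown and control stocks both carry this insertion, or any other named here, was not tested.

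The other families that fell were lower in level. rooA had 7.501, 8.09 and 8.30 TPM in the controls and 1.38, 1.39 and 1.90 in the knockdown (−1.81 ± 0.18, limma adjusted p = 0.00165). HMS-Beagle had 8.41 ± 1.30 TPM in the controls and 2.42 ± 0.9302 in the knockdown (SD, n = 3 each), ninja-Dsim-like 9.91 ± 1.78 and 3.29 ± 0.871, and Tc1-2 6.66 ± 0.575 and 1.67 ± 1.38. In 34 of the 81 families tested the knockdown lay below the controls without overlap. That share was not taken over all rows, of which 68.5% had an estimate below 0. HMS-Beagle, ninja-Dsim-like and Tc1-2 were 3 of the 34. Their limma adjusted p were 0.0197, 0.0195 and 0.0406, and each lost its call when any one control was left out, unlike TART-C, G2, TART-A, rooA and invader1. Tc1-2{}4132 took 51.55% of the Tc1-2 mean and ninja-Dsim-like{}2098 61.2% of the ninja-Dsim-like mean. The ninja-Dsim-like estimate of −1.36 became −0.46 outside expressed genes (limma adjusted p = 0.348), −0.24 for insertions of at least 300 bases (limma adjusted p = 0.580) and −0.47 on aligned bases (limma adjusted p = 0.270). The Tc1-2 estimate of −1.64 became −0.96 for insertions of at least 300 bases (limma adjusted p = 0.136) and −1.02 on aligned bases (limma adjusted p = 0.066), and its call was also lost with a pseudocount of 0.1. With no filter on low values HMS-Beagle, ninja-Dsim-like, Tc1-2 and Bari1 were not called (limma adjusted p = 0.0633 to 0.123).

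**Figure D2:**
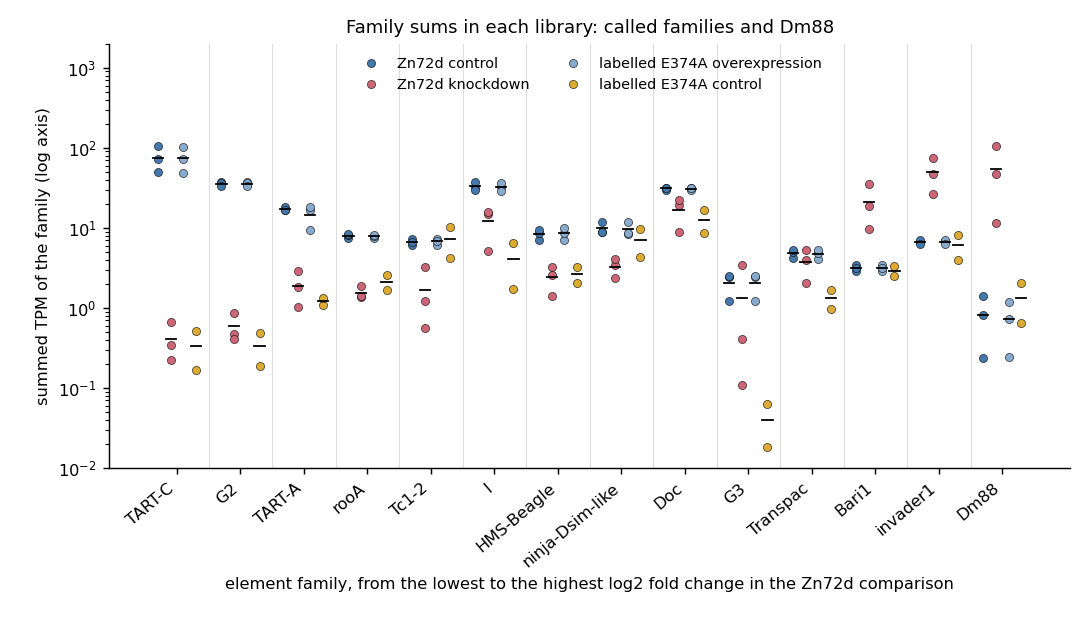
Summed TPM of each family (log axis) in every library for the 13 families called in either comparison and for Dm88, which was not called. Points are libraries, coloured by group, and short bars are group means. TART-C and G2 lie above 30 TPM in both reference groups and under 1 TPM in the Zn72d knockdown and in the labelled E374A control libraries, while invader1, Bari1 and Dm88 stand higher in all 3 knockdown libraries than in any other library.

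The families with the highest sums did not pass the test. copia had 246, 302 and 485 TPM after knockdown against 469, 604 and 525 in the controls (−0.68 ± 0.25, limma adjusted p = 0.188), and knockdown library 3 lay within the control range. INE-1 had 120.4, 196 and 424 TPM against 428, 435 and 447 (−1.01 ± 0.40, limma adjusted p = 0.226), and springer 38.2, 61.2 and 79.7 against 116, 139.6 and 114 (−1.09 ± 0.26, limma adjusted p = 0.0722). For 1360 the estimate of −0.75 ± 0.31 became 0.27 when only insertions outside expressed genes were summed and 0.25 on aligned bases, none of the 3 being called.

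invader1 rose in the Zn72d knockdown in all 3 libraries. It is an LTR element of 45 rows and had 74.6, 46.9 and 26.3 TPM in knockdown libraries 1, 2 and 3 and 6.65, 7.01 and 6.20 in the controls (2.60 ± 0.33, limma adjusted p = 0.005). Its call was lost on aligned bases (2.38, limma adjusted p = 0.0853) and when only insertions of at least 300 bases were summed (2.85, limma adjusted p = 0.124). Bari1, a DNA element of the Tc1 and mariner group, had 9.80, 18.8 and 35.4 TPM against 2.89, 3.45 and 3.16 (2.25 ± 0.38, limma adjusted p = 0.0227). The order of the knockdown libraries was opposite in the 2 families: library 1 was highest for invader1 and lowest for Bari1. Dm88, an LTR family of 30 rows, had the largest estimate and missed the threshold (4.51 ± 0.79, limma adjusted p = 0.0554). It reached 104.6, 46.9 and 11.6 TPM after knockdown against 1.39, 0.2399 and 0.813, so the groups did not overlap and the knockdown libraries differed widely. Dm88 was chosen after its values were seen.

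Most of the Dm88 signal and much of the invader1 signal came from one place. The Hsp70B cluster on chromosome 3R (dm6, 12465453 to 12511461, from the start of Hsp70Ba to the end of Hsp70Bc) holds 38 insertion rows and 7 genes. The genes include 4 copies of Hsp70, the main heat-inducible chaperone, and the alphagamma-element lncRNA, a non-coding transcript known to be heat-inducible. The cluster contains 17 of the 30 Dm88 rows and 15 of the 45 invader1 rows. By position these invader1 rows lie within Dm88 rows, such as invader1{}1334 (12489136 to 12489555) in Dm88{}1691 (12489061 to 12490214). The same bases thus belong to rows of both families, and their values in the cluster are not separate observations. Dm88 rows inside it added up to 104, 46.9 and 11.4 TPM after knockdown and to 1.13, 0.0943 and 0.479 in the controls, and those outside to 0.340, 0.0717 and 0.239 against 0.263, 0.146 and 0.334. The cluster thus held 97.9% to 99.8% of Dm88 in the knockdown libraries. The invader1 rows inside it summed to 53.0, 26.3 and 5.75 TPM in the knockdown and 0.677, 0.169 and 0.366 in the controls.

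The Hsp70 genes and the alphagamma-element lncRNA of the cluster stood higher in the same libraries, without being called, and the other 2 genes had at most 0.225 TPM in any library. Hsp70Bb had 486, 185 and 75.6 TPM in knockdown libraries 1, 2 and 3 and 45.2, 7.85 and 15.8 in the controls (3.33 ± 0.90, limma adjusted p = 0.158). It also had 95.8 and 103 TPM in the labelled E374A controls, where Dm88 in the cluster had 0.389 and 1.22. Hsp70Bc had 324, 136 and 53.5 TPM against 27.1, 0.714 and 6.86 (4.21 ± 1.23, limma adjusted p = 0.176). The alphagamma-element lncRNA had 10.1, 4.68 and 0.831 TPM and at most 0.0826 in the controls. The Hsp70 copies are near identical, so the split of reads among them is uncertain. Heat shock genes at other places followed the same order for Hsp70Aa, at 1151, 687 and 238 TPM against 161, 4.46 and 41.2, and the small heat shock gene Hsp26 had 1983, 1802 and 377 TPM against 91.3, 2.85 and 15.4. Neither was called (limma adjusted p = 0.214 and 0.128). The choice of the cluster and of these genes followed their values, and the part of heat shock transcription in the Dm88 and invader1 values was not tested.

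Outside the cluster invader1 was also higher in the knockdown. The other 30 rows summed to 21.6, 20.6 and 20.6 TPM in the knockdown and 5.97, 6.84 and 5.84 in the controls, and the family remained called when only insertions outside the cluster were summed (1.61, limma adjusted p = 0.0018), an alternative chosen after seeing the data. Most of this lay in invader1{}2300, 163 bases outside genes on chromosome 2R (6460153 to 6460315). It had 13.8, 14.3 and 18.05 TPM in the knockdown and 2.88, 4.36 and 2.79 in the controls (1.92 ± 0.21, limma adjusted p = 0.00232). A 6202-base 1360 insertion within 10000 bases of it, 1360{}747 (6463072 to 6469273), rose as well, from 0.8199, 0.877 and 0.362 TPM to 2.19, 3.61 and 5.79 (1.47 ± 0.30, limma adjusted p = 0.0388).

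**Figure D3:**
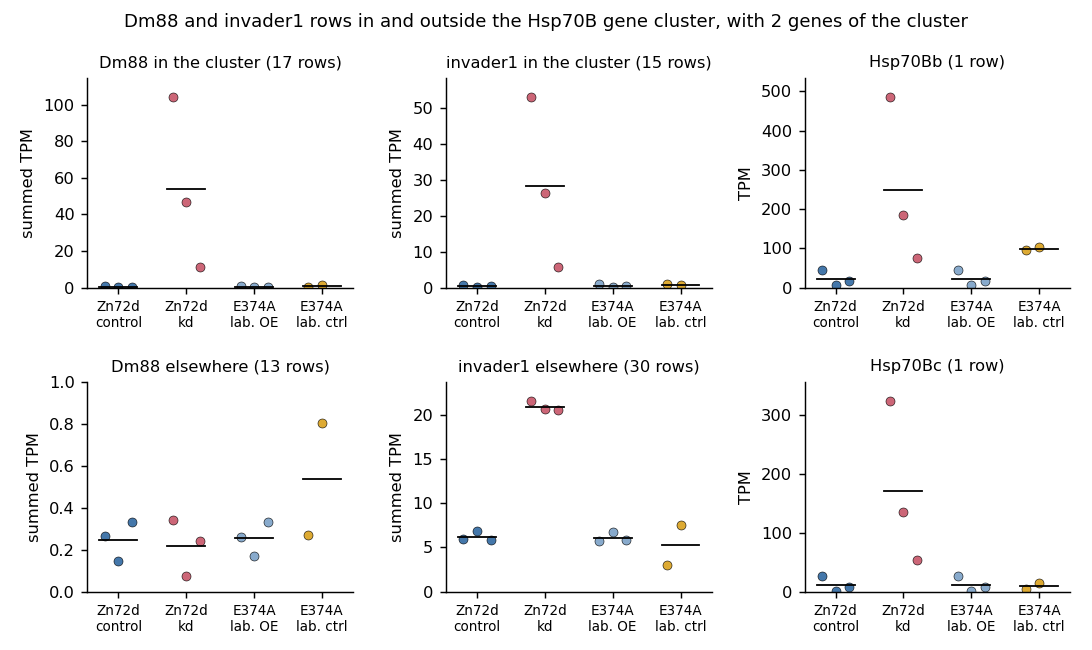
Summed TPM of Dm88 and invader1 rows inside and outside the Hsp70B cluster, and TPM of 2 genes of the cluster, by library (points) with group means (bars); each panel has its own axis from 0. Inside the cluster both families stand higher in the 3 Zn72d knockdown libraries than in any other library, in the order 1, 2, 3 that Hsp70Bb and Hsp70Bc also show. The invader1 rows of the cluster lie within its Dm88 rows, so the panels of both families there share positions. Dm88 elsewhere stays under 1 TPM.

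Bari1 rose in several copies at once. Of its 6 rows the 3 with the highest means were called. Bari1{}1409, in an intron of beat-IV, had 3.38, 6.50 and 11.9 TPM in the knockdown and 0.737, 0.798 and 0.803 in the controls (2.08 ± 0.35, limma adjusted p = 0.0205). Its host was listed at or near 0, with at most 0.0636 TPM in any library. Bari1{}282, outside genes on 2L (770516 to 772243), had 2.62, 5.02 and 11.7 TPM against 0.584, 0.662 and 0.644. Bari1{}Jheh[Bari1855], in an intron of the antisense transcript asRNA:CR46485 on 2R, had 2.41, 4.75 and 8.25 TPM against 0.581, 1.01 and 0.899. How reads that match several copies were handled is not given in the sources used here, so the split among copies is uncertain. The family call was lost without any one control or without knockdown library 2 (limma adjusted p = 0.0614 to 0.1002 there).

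Single insertions were tested on their own in the same way. In the Zn72d knockdown 9 insertions rose and 18 fell among 240 tested, where 2.49% of all 8728 rows were called, 1.01% higher and 1.48% lower. The count was 107 without knockdown library 3, where 9.43% of all rows were called, and 14 without knockdown library 2, where 0.792% were. It was 12 to 14 without any one control, beside 1.02% to 1.16% of all rows. Beside the rows above, the insertions that rose were Dm88{}1659 and Dm88{}1691 of the cluster, pogo{}322 in an intron of Snoo and pogo{}916 outside genes. pogo{}916 had 1.63, 1.31 and 3.37 TPM in the knockdown and was listed at 0 in the other 8 libraries. Of the 9 that rose 3 lay in introns and 6 outside genes, and of the 18 that fell 8 lay in introns, 1 in an exon and 9 outside genes. The groups did not overlap for any of them. That holds for many rows that were not called too: among the 240 tested, 42 were higher and 79 lower without overlap. The share over all rows was not taken.

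The copies of copia differed in their estimates, and the calls were all lower. Of 35 rows 25 were tested, and 5 of these fell. copia{}293 (2L, 2294097 to 2299243) had 24.9, 30.2 and 26.9 TPM in the controls and 1.502, 1.38 and 2.27 in the knockdown (−3.39 ± 0.20, limma adjusted p = 3.8e-05). copia{}399, in an intron of CadN2, had 45.6, 62.2 and 53.3 TPM against 4.84, 8.22 and 11.4 (−2.63 ± 0.28, limma adjusted p = 0.00188), although CadN2 itself had at most 0.223 TPM in any library. copia{}387, copia{}920 and copia{}1391 also fell, but the copia{}920 call was lost in 5 of the 6 fits that left out 1 library. The copy copia{}631, in Nipped-A, had 30.9, 39.6 and 55.4 TPM in the knockdown and 23.5, 28.0 and 25.8 in the controls and was not called (0.65 ± 0.23, limma adjusted p = 0.171). The estimates of the 25 copies ran from −3.39 to 1.13, with 7 above 0, around a family value of −0.68. The highest was that of copia{}2250, a row of 110 bases. Among copies longer than 5000 bases the highest was 0.66, for copia{}997. The 5 copies that fell and copia{}631 are 5145 to 5253 bases long, and how reads common to several copies were assigned is not stated.

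**Figure D4:**
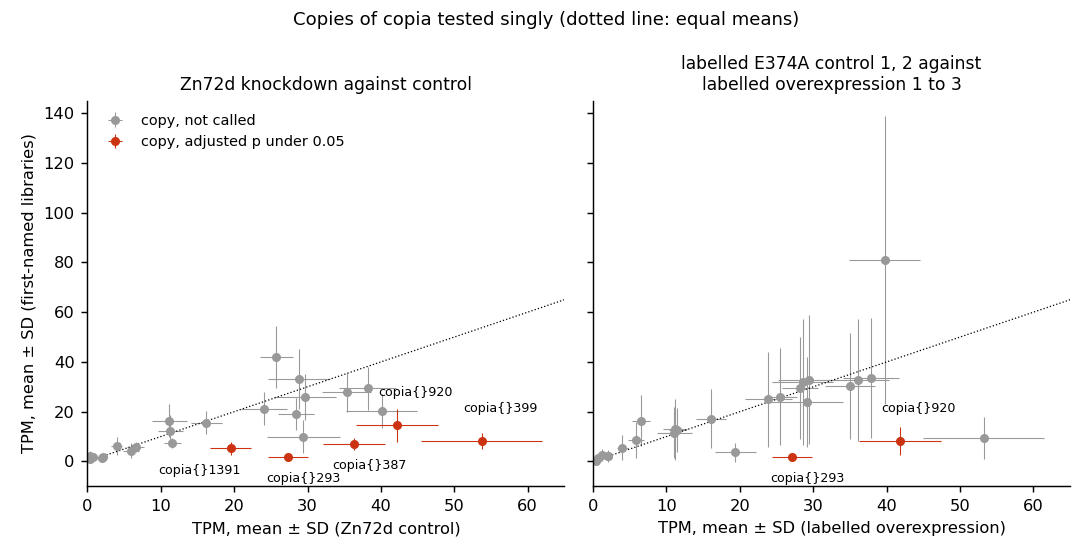
Mean TPM ± SD of each tested copia copy in the reference libraries (horizontal) and in the compared libraries (vertical), for the Zn72d comparison on the left (n = 3 each) and the E374A comparison on the right (n = 3 and 2). Called copies, in red, lie well below the dotted line of equal means, and other copies lie on both sides of it; the wide vertical bars on the right show how far the 2 labelled control libraries were apart.

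Insertions outside copia that fell in the knockdown stood in a few settings. The 1360{}94 insertion, 1006 bases in an intron of the small GTPase gene RhoU on X, had 3.23, 3.69 and 3.49 TPM in the controls and 0.00539, 0 and 0.00479 in the knockdown (−2.15 ± 0.19, limma adjusted p = 0.000612). RhoU showed no such difference (−0.01, limma adjusted p = 0.990). The rooA{}1506 insertion in the calcium pump gene PMCA on chromosome 4 had 5.03, 5.15 and 5.59 TPM against 0.789, 0.905 and 1.25, with PMCA not called (−0.53, limma adjusted p = 0.313). Tc1-2{}4132, which overlaps an exon of the antisense transcript asRNA:CR45600 on 3R, had 3.48, 3.37 and 2.51 TPM against 0, 0 and 0.413. There the host fell too, from 7.49, 7.67 and 6.13 TPM to 0.215, 0.285 and 0.131 (−2.74, limma adjusted p = 0.000145), and it was the only host called among the 27. Quasimodo{}3602, outside genes on 2R, had 5.42, 3.15 and 3.85 TPM in the controls and 0, 0 and 0.190 in the knockdown. On 2L, ninja-Dsim-like{}2098, INE-1{}6138 and INE-1{}6139 in introns of CG3635 and flea{}1998 next to that gene fell together, while CG3635 was not called (−0.31, limma adjusted p = 0.317). That run of neighbours was picked out on its values.

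The second comparison set the libraries labelled E374A control 1 and 2, which had the high Adar values, against those labelled E374A overexpression 1 to 3. Differences are given as labelled control minus labelled overexpression. The summed TPM of all insertions was 794 and 1951 in the labelled controls and 1754, 1932 and 1836 in the labelled overexpression libraries. The 2 labelled controls lay on both sides of the other group, with a mean of 1372 ± 818 (SD, n = 2) against 1841 ± 89.1 (n = 3). The ratio of the means was −0.42 on the log2 scale, 0.084 without labelled control 1 and −1.21 without labelled control 2. With median-ratio scaling it was −0.65. Median-ratio size factors were 0.933 and 1.331 for labelled controls 1 and 2 and 1.071, 1.027 and 0.958 for the labelled overexpression libraries. In labelled control 2 the typical row of the library thus also had a higher TPM. On unscaled TPM the labelled controls also lay on both sides of the other group for copia (217 and 714 TPM against 466, 600.003 and 522) and 1360 (21.4 and 74.7 against 60.4, 59.0 and 53.2). For INE-1 labelled control 1 was low, at 208 TPM, and labelled control 2 lay within the other group, at 438 against 423, 430.3 and 441.

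In this comparison 9 of the 80 families tested were called, all lower (limma on log2(TPM + 1)). At an unadjusted p under 0.05 there were 24, of which 2 were higher, but the share of all rows at that threshold was not taken. Of all 8624 rows 1.18% were called higher and 2.76% lower at the adjusted threshold, 3.94% in all. The families were the non-LTR elements TART-C, G2, TART-A, I, G3 and Doc and the LTR elements rooA, HMS-Beagle and Transpac. The median log2 fold change was −0.47 over the families and 0.14 over all rows, and 72 of the 80 families against 35.4% of all rows had an estimate below 0. Leaving out labelled overexpression library 1 or 3 left 4 calls in each case, where 2.55% and 2.61% of all rows were called. Leaving out a labelled control leaves 1 library in its group, so only medians are given here for those fits. Without labelled control 1 the family median was 0.022 against 0.36 over all rows. Without labelled control 2 it was −0.89 against −0.088. Median-ratio scaling gave 17 calls, all lower, where 6.32% of all rows were called.

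TART-C, G2 and TART-A were low in the labelled controls as well. TART-C had 0.169 and 0.508 TPM against 48.9, 72.6 and 103 (−5.77 ± 0.32, limma adjusted p = 1.5e-05), and G2 had 0.486 and 0.186 against 37.3, 36.1 and 33.4 (−4.78 ± 0.25, limma adjusted p = 9.4e-06). TART-A had 1.09 and 1.35 TPM against 16.6, 18.02 and 9.40 (−2.78 ± 0.32, limma adjusted p = 0.00135). In labelled overexpression 3, at 9.40, TART-A{}6259 was listed at 0, against 7.27 TPM in Zn72d control 3, with which that library shares most of its coverage. The telomeric families together, HeT-A, HeT-Tag and TART-A to TART-C, summed to 6.06 and 7.44 TPM in the labelled controls, 5.22, 3.46 and 10.2 in the Zn72d knockdown and between 75.2 and 128 in the 6 reference libraries. The low values in both comparisons are set against libraries that share their reads, so they are not independent. These 3 families kept their calls in both comparisons under every alternative tried.

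I, the non-LTR element behind I-R hybrid dysgenesis in crosses of fly strains, fell in this comparison, although the call was lost with no filter on low values (limma adjusted p = 0.0521). It had 1.72 and 6.48 TPM in the labelled controls and 32.4, 29.3 and 36.5 in the labelled overexpression libraries (−2.90 ± 0.40, limma adjusted p = 0.00646). In the Zn72d comparison it had 5.19, 15.1 and 15.7 TPM in the knockdown against 32.8, 29.6 and 36.9 (−1.52 ± 0.36, limma adjusted p = 0.0733). The difference between the comparisons was not tested. The signal was shared by several of the 38 rows: 10 copies, with means of 1.19 to 3.11 TPM over the 11 libraries, were tested in the E374A comparison and called lower, with estimates from −1.85 to −1.17. Their means in the labelled controls were 0.246 to 0.578 TPM. Each thus passed the filter only through the labelled overexpression libraries, so the filter favoured copies that are lower in the labelled controls. Long copies had similar values, such as 2.32, 2.20 and 2.94 TPM for I{}1078 and 2.31, 2.23 and 2.91 for I{}188 in the labelled overexpression libraries. How reads common to several copies were assigned is not given, so these copies cannot be taken as separate observations. The copy with the highest mean was I{}Sirt6-iso-1a in an intron of the deacetylase gene Sirt6, at 0.316 and 0.841 TPM against 4.503, 4.31 and 5.06. The next, I{}129 in the guidance gene NetA, had 0.116 and 0.477 against 2.54, 2.48 and 3.25. Neither host was called (limma adjusted p = 0.714 and 0.0890).

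The remaining calls rested on fewer libraries or rows. G3 had 0.0180 and 0.0623 TPM against 2.42, 1.21 and 2.48 (−1.52 ± 0.29, limma adjusted p = 0.0218), of which 87.7% came from G3{}3043, a row of 31 bases. Transpac had 0.982 and 1.65 TPM against 4.11, 4.91 and 5.23, HMS-Beagle 2.02 and 3.28 against 6.98, 8.74 and 9.86, and rooA 1.66 and 2.59 against 7.41, 7.92 and 8.22. Their limma adjusted p were 0.0292, 0.0299 and 0.0138. Doc had 8.64 and 16.7 TPM against 31.6, 29.7 and 31.2 (−1.28 ± 0.28, limma adjusted p = 0.0357). Of Doc 86.7% came from Doc{}CHKov1[Doc1420], an insertion in an exon of CHKov1 that is known from natural populations for splitting that gene. CHKov1 itself had 20.7 and 47.3 TPM against 31.4, 32.02 and 32.5 and was not called (−0.03, limma adjusted p = 0.971). Doc, rooA, HMS-Beagle and Transpac lost their calls without labelled overexpression library 1 or 3, the last 2 also without library 2. Outside expressed genes the Doc estimate became −0.28 (limma adjusted p = 0.656), that of rooA −0.87 (limma adjusted p = 0.118) and that of Transpac −1.04 (limma adjusted p = 0.0641). With no filter on low values G3, Doc, HMS-Beagle and Transpac were not called (limma adjusted p = 0.0705 to 0.138), and Doc also not with a minimum mean of 0.1 TPM or without trend and robust variances.

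**Figure D5:**
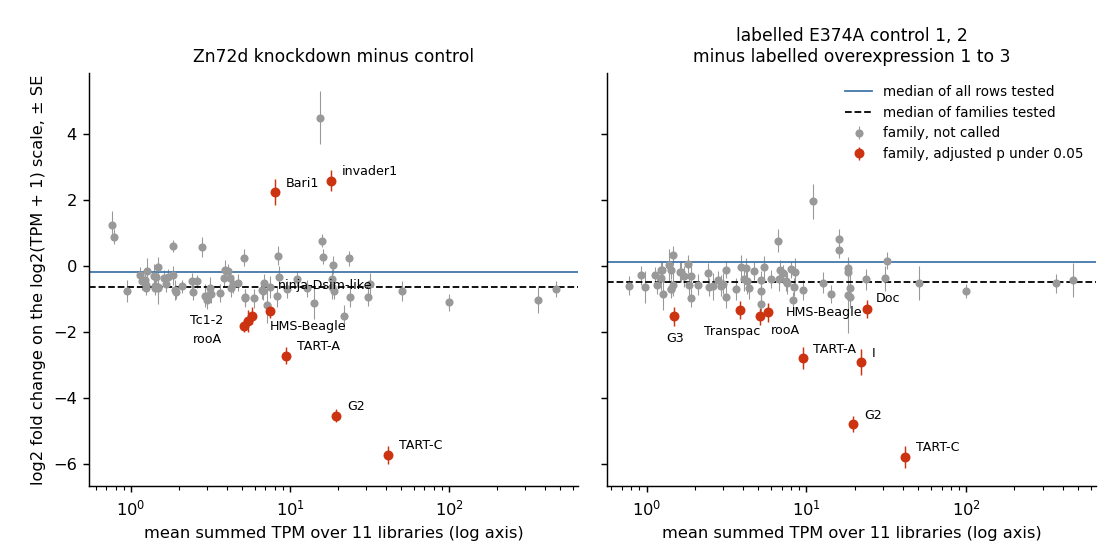
Log2 fold change (± SE) of each tested family against its mean summed TPM (log axis), for the Zn72d comparison (81 families) and the E374A comparison (80 families), with the medians of the families and of all rows tested as lines. In both panels the dashed family median lies below the median of all rows, and TART-C and G2 lie lowest.

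Among single insertions of the E374A comparison 3 rose and 22 fell of 249 tested, where 3.96% of all 8793 rows were called, 1.16% higher and 2.8% lower. The count was 10 and 11 without labelled overexpression 1 and 3, where 2.39% and 2.57% of all rows were called. Without labelled control 1, which leaves 1 library in the group, the insertion median was 0.091 against 0.36 over all rows. Without labelled control 2 it was −0.82 against −0.093. Of the 22 that fell, 10 were the copies of I that passed the filter only through the labelled overexpression libraries. The insertions that fell were led by TART-C{}6275, G2{}340, copia{}293, TART-A{}6261, copia{}920 and 1360{}94. copia{}293 had 0.702 and 2.73 TPM against 24.6, 29.9 and 26.7, and copia{}920 had 4.35 and 12.4 against 36.8, 47.8 and 40.7. 1360{}94 was listed at 0 in both labelled controls and had 3.20, 3.66 and 3.46 TPM in the labelled overexpression libraries. In contrast copia{}387, which fell in the Zn72d knockdown, had 15.6 and 50.1 TPM against 31.8, 40.3 and 35.9 and was not called. 

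Both rises with a host gene lay in the same gene. INE-1{}3108 and INE-1{}3109 are short rows, 186 and 83 bases, in introns of the chitin deacetylase-like gene Cda4 on X and on its strand. INE-1{}3108 had 11.9 and 31.7 TPM in the labelled controls and was listed at 0 in the other 9 libraries (4.36 ± 0.38, limma adjusted p = 0.000307). INE-1{}3109 had 2.69 and 4.604 TPM and was also listed at 0 in the other 9. Cda4 moved with them, at 4.17 and 12.9 TPM against 0, 0 and 0.0168 (3.08, limma adjusted p = 0.00265). The third insertion called higher, 3S18{}3955, was listed at 0 in all 3 labelled overexpression libraries and had 3.56, 3.76 and 3.41 TPM in the Zn72d controls that share their coverage. Against those controls its difference was −0.03 in place of 2.16 and was not called.

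Across insertions, the change of an insertion and that of its host gene were only loosely related. In the Zn72d comparison 131 insertions in 88 host genes had both values, with a Spearman correlation of 0.14 and median log2 fold changes of −0.67 for insertions and −0.31 for hosts. In the E374A comparison 156 insertions in 103 genes gave 0.23, with medians of −0.34 and −0.20. Insertion and host had the same sign in 109 of the 131 and in 111 of the 156, and medians below 0 on both sides raise such counts. For INE-1 the correlations were 0.27 and 0.33, and for other families 0.02 and 0.15. These insertions share libraries and host genes, and the values are given as a description. Of the called insertions with a tested host, 1 of 10 and 2 of 12 had a host that was also called.

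Few genes of the small RNA pathways were called. Of 51 listed genes of the piRNA, siRNA and miRNA pathways, with Adar and Zn72D, 32 passed the filter in each comparison. By limma none was called in the Zn72d comparison, where 2.21% of all rows were. At an unadjusted p under 0.05 there were 8, with no share of all rows taken at that threshold. The E374A comparison called Adar alone (5.64 ± 0.18), the gene the study set out to change, where 3.94% of all rows were called. The medians of the list were −0.29 and 0.19, against −0.17 and 0.14 over all rows. The most abundant members after Adar were the siRNA effector AGO2, the gene of the heterochromatin protein HP1a and the Tudor-domain genes tud and tapas. AGO2 had 44.7, 89.6 and 89.4 TPM in the Zn72d knockdown and 72.7, 66.3 and 56.6 in the controls, and the HP1a gene 58.9, 55.1 and 68.1 against 62.6, 55.2 and 56.5. The tud gene had 20.3, 52.9 and 63.2 TPM against 65.1, 71.8 and 67.8, and tapas 15.96, 31.3 and 30.9 against 36.5, 32.4 and 31.9. In knockdown library 1 AGO2, tud and tapas each lay below all 3 controls. The median-ratio size factor of that library was 0.749, against 0.961 to 1.074 in the controls, so its typical row also had a lower TPM.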

How the data were processed

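The submitters' processing notes name STAR 2.7.1a, StringTie and the build dm6; strand setting and treatment of reads that match several copies are not stated there. The authors deposited 1 table per library with coverage (a signal, mean read depth per base), FPKM and TPM per row; TPM summed to 1000000 in each of the 11 tables. The deposited coverage and FPKM served to compare libraries and to estimate aligned bases. Family names came from the reference gene-name table, by identifier, or else from the files, and 2 of 5416 insertions stayed unnamed. An Ensembl annotation held 5414 of them with the same coordinates and strand and gave the exons of host genes.

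TPM were summed by family, and families were tested together with all other rows, insertions singly, with limma 3.58.1 and statmod 1.5.0 in R 4.3.3 (trend and robust variances, two-sided, Benjamini-Hochberg over all rows tested) on log2(TPM + 1), for rows with a mean of at least 1 TPM. Fold changes on this scale understate the change of low rows. Errors are SE for log2 fold changes and SD for TPM. Calls are adjusted p under 0.05. Read counts were not used here, so no counting interval is given. An expressed gene had a mean of at least 1 TPM. The steps were tested on simulated data. Python 3.11.15 with pandas 2.3.3 and matplotlib 3.10.9 did the rest.

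Text names the 10 families and 10 insertions with the highest means, the called ones up to 10 per direction and comparison, and their host genes. Members and lists were chosen with earlier results of these data known. Alternatives covered the pseudocount, the filter, scaling, variances, a replicate block, each library left out, other reference libraries, insertion subsets and aligned bases.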

Additional observations from a re-analysis of the deposited data

How the results depend on the processing

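For the named families and insertions, fits that left out 1 library kept direction and call in 310 cases, lost a call in 65, gained one in 17 and changed sign in 6; with no filter on low values 52 kept both and 21 lost a call. The number of families called in the Zn72d comparison, 9, became 5 with no filter on low values, 15 with median-ratio scaling and 16 on aligned bases. The shares of all rows called were 0.528%, 3% and 2.71%. With 1 library left out it became 5 to 30, beside 0.714% to 7.68% of all rows. In the E374A comparison, 9 became 4 with no filter and 17 with median-ratio scaling, and 4 to 34 with 1 library left out. Insertion calls in the Zn72d comparison, 27, became 46 with a minimum mean of 0.1 TPM and 12 to 107 with 1 library left out; in the E374A comparison 25 became 13 with no filter, 47 with median-ratio scaling and 10 to 79 with 1 library left out. Shares of all rows called were 1.24% and 6.32% for E374A families with no filter and median-ratio scaling. For insertions they were 1.97% in the Zn72d comparison with a minimum mean of 0.1 TPM and 0.792% to 9.43% with 1 library left out. In the E374A comparison they were 0.893% with no filter and 6.66% with median-ratio scaling. The upper ends of both E374A ranges came from the fit without labelled control 2. It leaves 1 library in its group, so nothing is concluded from it. The log2 ratio of summed TPM ran from −0.91 to −0.43 and from −1.21 to 0.084 with 1 library left out. With 1 library left out the E374A estimates also changed sign for copia (−1.27 to 0.44), INE-1 (−1.05 to 0.022), 1360 (−1.38 to 0.37), 3S18 (−0.24 to 0.59), flea (−1.08 to 0.36) and H (−0.89 to 0.12). With all libraries none of the 6 was called. For each of the 6 the lowest estimate was the one without labelled control 2 and the highest the one without labelled control 1. In the Zn72d comparison 1360 turned to 0.27 outside expressed genes and to 0.25 on aligned bases, and in the E374A comparison 3S18{}3955 turned to −0.033 against the Zn72d controls. The cause of these shifts was not tested.

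The replicate numbers do not pair the libraries: deviations of same-numbered Zn72d libraries correlated at 0.06, −0.07 and −0.02, and of E374A libraries at −0.02 and 0.25. With a replicate block the calls were 18 and 6 families, where 5.23% and 4.55% of all rows were called, and 73 and 30 insertions, where 5.68% and 4.75% were. In the E374A comparison 5 of the 6 families were among the 9 called without it and 1 was called higher; rooA, Doc, Transpac and HMS-Beagle were not called (limma adjusted p = 0.0546 to 0.149). Only Zn72d knockdown 1 and labelled E374A control 2 correlated best with the library of their own number.

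Depth in counts per row is not known, which limits what can be said of rows near 0.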

Other observations

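Some families outside the named ones stood apart in the labelled E374A controls. They were chosen after their values were seen. Rt1b, a non-LTR retrotransposon family of 58 rows, had 14.1 and 53.8 TPM in labelled controls 1 and 2, 7.60, 6.43 and 5.12 in the labelled overexpression libraries and 3.31, 6.42 and 5.04 in the Zn72d knockdown. It was not called (E374A log2 fold change 1.98 ± 0.53, limma adjusted p = 0.1296). The LTR family diver had 7.16 and 18.0 TPM in the labelled controls and between 5.56 and 6.67 in the labelled overexpression libraries. In the Zn72d knockdown, Tirant, an LTR retrotransposon of the gypsy group, had 0.467, 2.01 and 4.27 TPM, against 0.586, 0.0978 and 0 in the controls, and was not called (1.25 ± 0.43, limma adjusted p = 0.172). The DNA element family transib1 had 1.19, 1.45 and 2.52 TPM against 0.354, 0.5002 and 0.421 (0.90 ± 0.23, limma adjusted p = 0.0906), with 98.7% of its mean from transib1{}1717 (2R, 6469276 to 6481256), which lies next to 1360{}747.

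Insertions were not spread evenly in level over the genome. Of 565 insertions on chromosome 4, the small heterochromatic autosome, 6.73% had a mean of at least 1 TPM, as did 6.97% of 631 on 3R, against 2.56% of 1056 on 3L and 3.95% of 887 on X. These shares are a description, with no test.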
